A study of Homo sapiens with 4 samples.

Results

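The genes described here are 10 pluripotency and stem cell marker genes: SOX2, POU5F1, NANOG, KLF4 and SALL4, which encode transcription factors, LIN28A and LIN28B, which encode RNA-binding proteins, PROM1, which encodes the surface protein CD133, and the aldehyde dehydrogenase genes ALDH1A1 and ALDH1A3. They were chosen by name and make up 10 of the 20033 protein-coding genes on the main chromosomes. Every peak summit inside a gene or within 20 kb of it was taken, which gave 71 of the 150917 open regions found in any library. The method was ATAC-seq, which uses a transposase to cut and tag accessible DNA, with 2 LNCaP libraries and 2 LNCaP-resistance libraries. LNCaP is a prostate cancer cell line that depends on the androgen receptor. Its libraries carry the genotype WT in the labels and no treatment. The LNCaP-resistance libraries carry the genotype resistance cells and were treated with enzalutamide, a drug that blocks the androgen receptor. The labels describe one serum-supplemented medium for both groups and do not say which of the resistant sublines of the study was used. The study derived its sublines by stepwise selection in the drug after adaptation to charcoal-stripped serum, so the effects of the drug, of selection and of medium cannot be told apart. Nothing in the labels says that replicates were separate cultures, and the spread between 2 libraries may be technical.

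In embryonic stem cells, OCT4 (the product of POU5F1), SOX2 and NANOG bind regulatory DNA together and keep the cells from differentiating, and KLF4 and SALL4 act in the same network. LIN28A and LIN28B block the maturation of let-7 microRNAs, which would otherwise repress growth and stem cell genes. CD133 and high aldehyde dehydrogenase activity are used to isolate cancer cells with stem cell traits, and in prostate cancer SOX2 is known for its part in the loss of luminal identity under androgen receptor blockade.

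Promoter windows from the RefSeq table of GRCh38.p14 are shown for the 5 genes whose starts carry the contrasts below: SOX2, KLF4 and ALDH1A1, where the resistant libraries ranked higher, ALDH1A3, where they ranked lower, and NANOG, where no library had a summit. Each runs 5′ to 3′ in the direction of the gene, from 250 bases before its start to 50 after it. Capitals mark matches, on either strand, to the octamer ATGCAAAT, the SOX core ACAATGG or ACAAAGG, the GC box GGGCGG, the CCAAT box CCAAT, the TATA box TATAAA and the E-box CACGTG. The FOXA motif TGTTTAC and the androgen receptor motif AGAACA were searched too and have no match in these 5 windows. Matches to the GC box can share a base with each other.
SOX2 (chr3:181711675-181711974, plus strand): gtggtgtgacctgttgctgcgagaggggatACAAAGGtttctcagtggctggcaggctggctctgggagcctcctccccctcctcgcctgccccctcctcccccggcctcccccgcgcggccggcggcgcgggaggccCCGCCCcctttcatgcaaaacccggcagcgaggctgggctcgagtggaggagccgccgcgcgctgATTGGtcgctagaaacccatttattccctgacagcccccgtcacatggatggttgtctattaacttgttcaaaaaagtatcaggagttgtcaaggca
KLF4 (chr9:107489720-107490019, minus strand): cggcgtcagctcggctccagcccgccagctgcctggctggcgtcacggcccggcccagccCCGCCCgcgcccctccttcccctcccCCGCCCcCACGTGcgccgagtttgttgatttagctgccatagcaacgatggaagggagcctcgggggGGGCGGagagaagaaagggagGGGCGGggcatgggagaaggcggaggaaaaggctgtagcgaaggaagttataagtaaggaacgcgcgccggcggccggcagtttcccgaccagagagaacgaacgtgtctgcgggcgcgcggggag
ALDH1A1 (chr9:72953004-72953303, minus strand): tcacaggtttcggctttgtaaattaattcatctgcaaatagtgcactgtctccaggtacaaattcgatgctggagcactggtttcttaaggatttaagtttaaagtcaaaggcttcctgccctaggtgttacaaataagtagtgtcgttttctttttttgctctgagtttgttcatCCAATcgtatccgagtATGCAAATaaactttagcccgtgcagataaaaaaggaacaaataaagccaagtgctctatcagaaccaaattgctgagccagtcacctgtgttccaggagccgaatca
ALDH1A3 (chr15:100879581-100879880, plus strand): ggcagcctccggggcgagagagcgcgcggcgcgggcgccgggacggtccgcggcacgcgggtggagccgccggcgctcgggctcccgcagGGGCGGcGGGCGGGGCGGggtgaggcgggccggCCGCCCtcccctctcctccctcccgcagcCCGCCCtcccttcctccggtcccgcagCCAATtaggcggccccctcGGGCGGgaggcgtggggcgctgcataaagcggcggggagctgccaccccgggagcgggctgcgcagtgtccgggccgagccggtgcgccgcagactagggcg
NANOG (chr12:7789152-7789451, plus strand): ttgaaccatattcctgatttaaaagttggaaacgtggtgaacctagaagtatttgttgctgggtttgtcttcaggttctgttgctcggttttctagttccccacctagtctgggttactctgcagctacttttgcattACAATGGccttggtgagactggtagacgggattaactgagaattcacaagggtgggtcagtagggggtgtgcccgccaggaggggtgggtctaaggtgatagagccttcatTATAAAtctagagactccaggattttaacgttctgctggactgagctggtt

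The 5 windows differ in base composition. The GC content was 63.3% for SOX2, 69.0% for KLF4, 81.7% for ALDH1A3, 46.7% for NANOG and 40.3% for ALDH1A1, against a median of 58.7% over 35116 promoter windows. ALDH1A3 holds 6 GC boxes and KLF4 holds 4, and a GC box is present in 45.0% of all windows. The KLF4 window also has an E-box, which 7.26% of windows hold. ALDH1A1 has no GC box, and has a CCAAT box beginning 74 bases before its start and an octamer beginning 58 bases before it. The octamer, the sequence that OCT4 and related factors recognise, is in 1.77% of windows and the CCAAT box in 34.6%. SOX2 holds the SOX core ACAAAGG, which 5.33% of windows have, with 1 GC box and 1 CCAAT box. NANOG holds the SOX core ACAATGG, which 3.16% of windows have, beginning 112 bases before its start, and a TATA box sequence, present in 11.5% of windows, at the start itself. These matches describe the sequence and do not show that a factor was bound. Of the 10 genes, 7 were in the promoter table, with 11 windows in all. LIN28A, POU5F1 and SALL4 were not matched.

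The deposited lists give the position of each peak summit in a library and its score, a −log10 of either the p-value or the q-value. In LNCaP replicates 1 and 2 there were 117245 and 107344 summits, and in resistant replicates 1 and 2 there were 70866 and 45618. They give no read counts, so the depth is unknown, and a missing summit means only that none was listed. Scores were compared as percentiles: the percentile of a summit is the percent of summits in its own library with an equal or lower score, and a gene or window without a summit was set to 0. At the same rank, a summit has a lower percentile in a shorter list, so the length of the resistant lists moves with any result in which resistant percentiles are lower, and its part was not tested. With 2 libraries against 2, an exact permutation test cannot go below a two-sided p of 0.333. No test was therefore made, and a gene or region was called higher or lower when both resistant libraries lay above or below both LNCaP libraries, read against the share of all genes or regions called by the same rule. Of 9 luminal prostate genes, 8 had a summit within 3 kb of their start in each library, the exception being KLK3. Of 4 basal genes, 3, 3, 2 and 1 had one in LNCaP replicates 1 and 2 and resistant replicates 1 and 2, and KRT5 had none. The summed percentiles of the basal genes were 153 and 141 in LNCaP and 98.9 and 82.6 in resistant libraries. Of 4 fibroblast genes, 3 had a summit in each library, with sums of 237 and 212 against 215 and 175, and DCN had none. Of 4 leukocyte genes, 1 to 2 had a summit, with sums of 76.3 and 82.2 against 123 and 103, and PTPRC and CD14 had none. Several of these markers are not in the promoter table, and either end of the gene was used for them, so a neighbour can be counted. The part of other cells in the results below was not tested. In bulk libraries, fewer open cells and less opening per cell cannot be told apart.

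Summit percentiles at the starts of the marker genes did not move in a single direction. The strongest summit within 3 kb of the start was higher in both resistant libraries at SOX2, KLF4 and ALDH1A1, and lower at LIN28B, PROM1 and ALDH1A3. The lower calls rest wholly or partly on unlisted summits. LIN28B and PROM1 had no start summit in either resistant list, and ALDH1A3 had none in that of replicate 2. With a score of at least 10, 0 genes were lower at the start, and the same held with equal numbers of summits. The part of list length was not tested. At POU5F1 and SALL4 the groups overlapped, and NANOG had no summit at its start in any library. LIN28A counts as a further higher gene, through a summit at the start of its neighbour DHDDS, described with that gene. Thus 4 of the 9 genes with a start summit were higher and 3 were lower, against 25.3% higher and 25.7% lower of the 16446 protein-coding genes with such a summit. The median difference, resistant minus LNCaP, was 1.53 percentile points over the 9 genes and -0.12 points over all 16446.

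**Figure D1:**
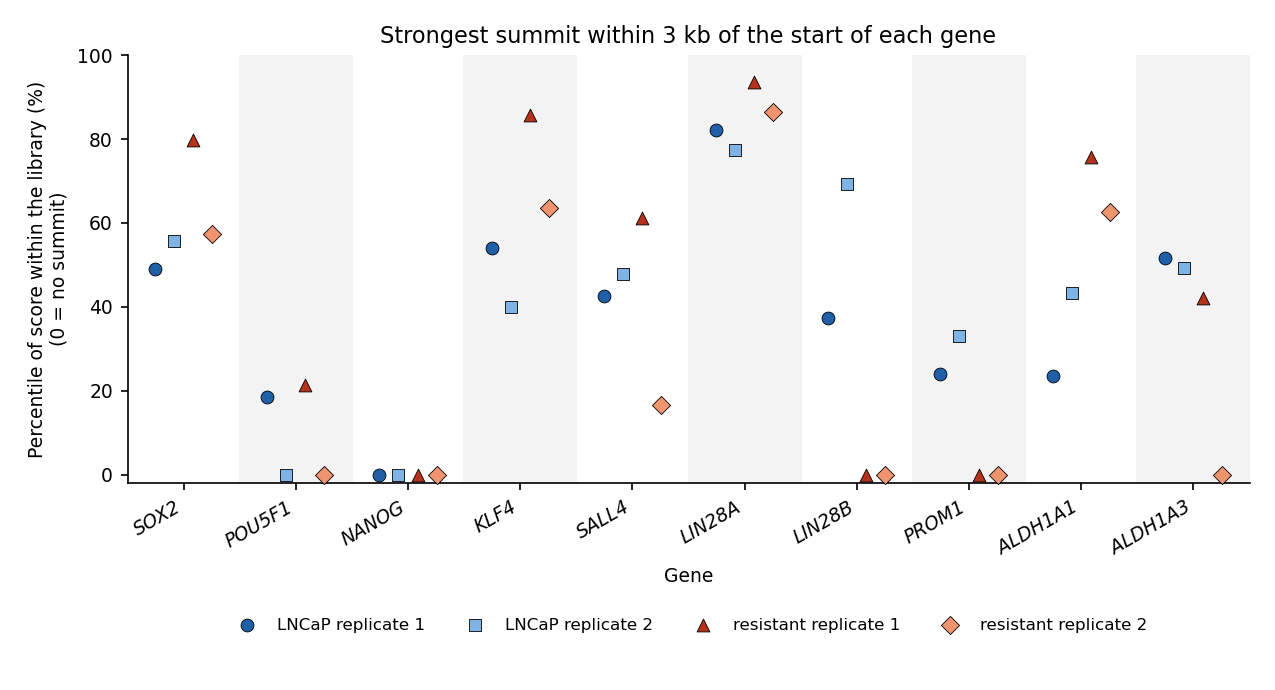
Percentile of the strongest summit within 3 kb of the start of each gene (y axis, percent, 0 where no summit was listed) for the 2 LNCaP libraries (blue) and the 2 resistant libraries (red). Both resistant points lie above both LNCaP points at SOX2, KLF4, LIN28A and ALDH1A1 and below them at LIN28B, PROM1 and ALDH1A3, and all 4 points of NANOG are at 0.

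SOX2 (chr3:181711925-181714436) lies inside the long noncoding gene SOX2-OT. Its start summit ranked at percentiles 49.0 and 55.6 in LNCaP replicates 1 and 2, and at 79.9 and 57.3 in resistant replicates 1 and 2. The groups do not overlap, but the second resistant library exceeded the second LNCaP library by little. The mean was 52.3 in LNCaP and 68.6 in resistant cells, a difference of 16.3 points with a pooled SD of 11.7 (n = 2 per group). The summits lay 105, 93, 26 and 87 bases before the start in the same order of libraries, all in the window printed above and around its GC and CCAAT boxes. The locus also had 1 of the 4 regions found in both resistant and in no LNCaP library, 7558 bp after the start, at percentiles 33.0 and 23.8. A region 970 bp after the start, in the single-exon body of the gene, was listed in LNCaP replicate 1 at 42.4 and in both resistant libraries at 51.6 and 50.3. Upstream, a region 11279 bp before the start overlapped between the groups, at 18.4 and 51.7 in LNCaP and 53.4 and 18.5 in resistant libraries, and no SOX2 region was LNCaP-only. The number of summits at the locus was 5 and 3 in LNCaP and 7 and 5 in resistant libraries. The groups overlap in this number, while within each replicate number the resistant library had more. Over all genes, the number of summits per locus was lower in both resistant libraries at 52.2% and higher at 2.44%.

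KLF4 (chr9:107484852-107489769) encodes a zinc finger factor active in both stem cells and differentiating epithelia. Resistant libraries had stronger summits at its start and in a distant region on either side, each near the start of another gene. Its start summit was at percentiles 53.9 and 39.9 in LNCaP and at 85.8 and 63.5 in resistant libraries. The mean was 46.9 in LNCaP and 74.7 in resistant cells, a difference of 27.8 points with a pooled SD of 13.2, and the groups do not overlap. In resistant replicate 1 the summit lay 503 bases before the start, outside the printed window, and in the others 114, 178 and 37 bases before it. A region 15292 bp before the start, which is 73 bp from the start of the uncharacterised gene LOC105376206, was at 53.6 and 20.4 in LNCaP and at 86.8 and 93.5 in resistant libraries. Its mean difference of 53.2 points (pooled SD 16.9) was the largest in that direction among the shared regions of the 10 loci. A region 24011 bp after the KLF4 start, inside the noncoding gene LINC01509 and 827 bp from its start, was listed in the resistant libraries alone, at 83.0 and 87.3. It ranked highest of the 4 resistant-only regions. In the opposite direction, 2 weaker regions were LNCaP-only, 1 of them in the gene body 708 bp after the start at 42.0 and 33.9, and the other 8536 bp after it at 13.9 and 14.4. A shared region 5446 bp after the start overlapped, at 61.4 and 55.9 against 66.5 and 47.5.

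**Figure D2:**
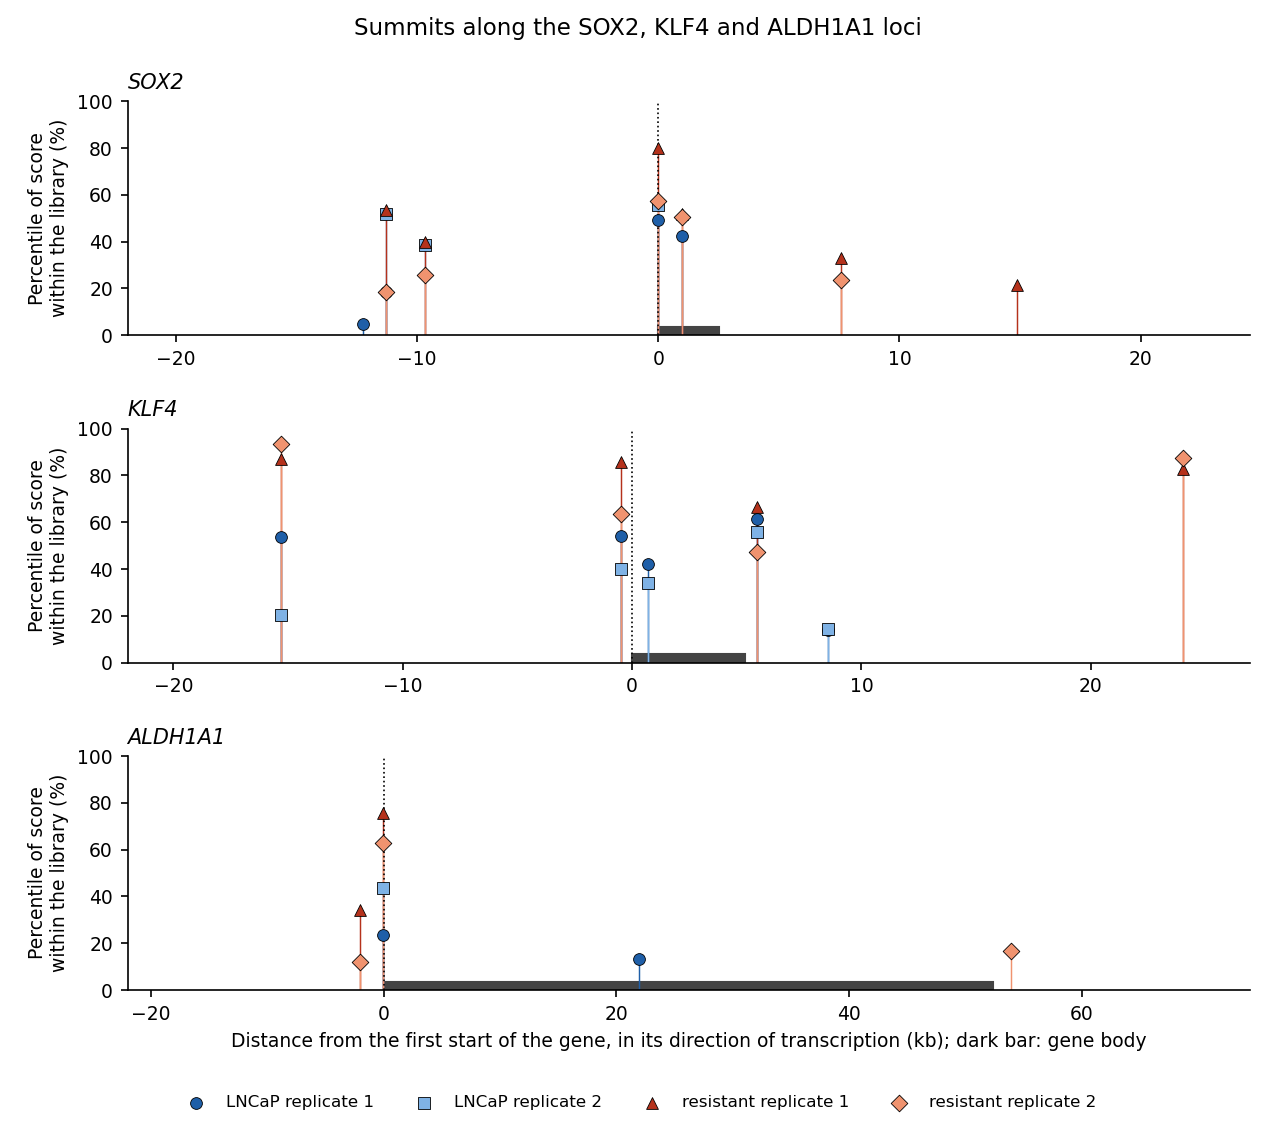
Regions along SOX2, KLF4 and ALDH1A1, by distance from the gene's start in its direction of transcription (x axis, kb) and percentile within the library (y axis, percent). Each point is the strongest summit of 1 library in a region, drawn at the region's strongest summit, and the dark bar is the gene body. Resistant points stand above the LNCaP points at each start, and the regions of KLF4 near 24 kb and of SOX2 near 7.6 kb hold resistant points alone.

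POU5F1 (chr6:31164337-31170682), the gene of OCT4, had few listed summits at its start. A summit was listed within 3 kb in replicate 1 of each group, at percentile 18.4 in LNCaP and 21.4 in resistant cells, and in neither replicate 2. The groups thus overlap. The strongest shared region of its locus, at 76.2 and 78.3 in LNCaP and at 87.1 and 86.9 in resistant libraries, lay 152 bp from the start of the neighbouring gene TCF19. That region ranked higher in both resistant libraries, by 9.80 points with a pooled SD of 1.05. A second neighbour region, inside CCHCR1, was LNCaP-only at 89.5 and 83.9, the highest percentiles of any LNCaP-only region of the 10 loci in replicate 1. It lay 20576 bp from the POU5F1 start, on the side of the 3′ end. A weaker LNCaP-only region and an overlapping region, 8283 and 15468 bp before the start, lay inside PSORS1C3.

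NANOG (chr12:7789402-7799146) had no listed summit in its body or at its start. Its locus held 1 region, 17656 bp after the start and nearest to SLC2A14, at 53.6 and 80.7 in LNCaP and 16.8 in resistant replicate 1, with no summit in resistant replicate 2. The strongest summit of the locus was therefore lower in both resistant libraries.

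SALL4 (chr20:51782331-51802521), a zinc finger factor of embryonic and germ cells, did not separate the groups at its start. The summit 2215 bp inside the gene was at 42.5 and 47.8 in LNCaP and at 61.2 and 16.5 in resistant libraries, which span the LNCaP values. A second region in the gene, 5024 bp after the start, was LNCaP-only at 45.1 and 33.1. The strongest region of the locus belongs to the neighbour ATP9A, 1174 bp from its start, at 94.3 and 94.2 in LNCaP and 95.7 and 97.5 in resistant libraries. It was higher in resistant cells by 2.37 points with a pooled SD of 0.903.

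LIN28A (chr1:26410817-26429728) and LIN28B (chr6:104937026-105083332) encode close relatives, and open regions within both genes ranked lower in the resistant libraries or were missing from them. Inside LIN28A, a region 6419 bp after the start was at 79.5 and 84.4 in LNCaP and at 73.4 and 62.6 in resistant libraries, a difference of -13.9 points with a pooled SD of 5.94. A region 5959 bp before the start was at 54.4 and 74.0 against 40.1 and 31.1, and neither pair of values overlaps. The summit counted for the LIN28A start, at 82.1 and 77.4 in LNCaP and 93.6 and 86.3 in resistant libraries, is at the far end of the gene and 41 bp from the start of DHDDS. Since LIN28A is not in the promoter table, either end of the gene was used, and with its known direction of transcription no library has a summit within 3 kb of its start. The higher summit is thus that of the DHDDS start, and the count of higher starts becomes 3.

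LIN28B had a start summit in the LNCaP lists alone. A region 309 bp after one of its starts was at 37.3 and 69.3 in LNCaP and was listed in neither resistant library. The RefSeq windows of its 2 starts held no summit in any library, so the summit lay past them. Further into the gene, regions 26441 and 81341 bp after the nearest start were LNCaP-only at 28.6 and 13.6 and at 37.3 and 38.5. A region 39292 bp after the start was at 67.0 and 61.5 in LNCaP and at 25.5 in resistant replicate 1 alone. Past the 3′ end, a shared region was at 76.3 and 83.9 in LNCaP and at 12.4 and 41.1 in resistant libraries, a difference of -53.4 points with a pooled SD of 14.9. A resistant-only region at 67.6 and 45.4 lay in that flank too, 675 bp from an end of POPDC1 and inside that gene. The locus held 8 and 7 summits in LNCaP and 3 and 2 in resistant libraries.

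PROM1 (chr4:15968228-16084023), the gene of the stem cell surface marker CD133, had the largest differences among the shared regions. A shared region 31784 bp after its nearest start was at percentiles 89.6 and 78.1 in LNCaP and at 8.20 and 3.86 in resistant libraries, a difference of -77.8 points with a pooled SD of 6.14. This was the largest difference of the 18 shared regions of the 10 loci. A shared region 74547 bp after the start was at 83.7 and 86.1 in LNCaP and at 33.0 and 23.8 in resistant libraries, a difference of -56.6 points with a pooled SD of 4.75. Both regions are inside the gene, far from its starts. Of its 13 regions, 6 were LNCaP-only, and among these the region 18882 bp after the start ranked highest, at 84.1 and 62.2. A mixed region in the flank past the 3′ end, nearest to FGFBP2, was at 84.6 and 93.6 in LNCaP. It was at 62.6 in resistant replicate 1 and had no summit in resistant replicate 2. Near the 4 listed starts, 1 region 2288 bp before the nearest one was at 24.0 and 33.1 in LNCaP and in neither resistant library. It lies inside the gene, 5617 bp after the first start, and the lower call at the PROM1 start rests on it. Another region, 835 bp after a start, was listed in LNCaP replicate 1 alone at 1.99. Within 1 kb of a start the groups therefore overlapped. The windows at the starts held no summit in any library. The resistant lists added 1 region of their own in replicate 2, at 30.3. The number of summits at the locus was 12 and 9 in LNCaP and 3 in each resistant library.

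The aldehyde dehydrogenase genes, whose enzymes make retinoic acid from retinal, went opposite ways. ALDH1A1 (chr9:72900671-72953053) had the largest difference in favour of resistant cells at a start among the 10 genes: its summit was at 23.6 and 43.4 in LNCaP and at 75.6 and 62.7 in resistant libraries. The mean was 33.5 in LNCaP and 69.2 in resistant cells, a difference of 35.7 points with a pooled SD of 11.8, and the groups do not overlap. In LNCaP the summits lay 42 bases before the start and at it, and in resistant libraries 12 and 17 bases before it, downstream of the octamer and CCAAT box in the window above. A resistant-only region 2031 bp before the start was weaker, at 34.1 and 12.1. The gene body held 1 further region, in LNCaP replicate 1 at 13.3.

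ALDH1A3 (chr15:100879831-100916626) had regions across its body that the resistant lists lacked. Its start summit was at 51.5 and 49.2 in LNCaP, at 42.2 in resistant replicate 1 and absent in resistant replicate 2. The difference at the start rests largely on that absence, and the summits lay 163, 129 and 171 bases before the start, at the upstream GC boxes of the window above or a few bases before them. The region is also 135 bp from the start of the neighbour LOC124903575. Inside the gene, the LNCaP-only regions 18268 and 22684 bp after the start ranked high, at 85.5 and 89.1 and at 83.2 and 84.0. The first of these was the strongest region of the whole locus in LNCaP. Another, 29964 bp after the start, ranked high in LNCaP replicate 2 alone, at 44.6 and 81.8. A shared region 9714 bp after the start was at 81.2 and 76.0 in LNCaP and at 51.9 and 54.7 in resistant libraries, lower by more than the spread (pooled SD 2.96). In the flank, inside LRRK1, a region 49275 bp after the start was LNCaP-only at 76.0 and 74.6. The region past the 3′ end of the gene, 38331 bp after its start, overlapped between the groups, at 65.3 and 73.6 against 73.6 and 42.3.

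**Figure D3:**
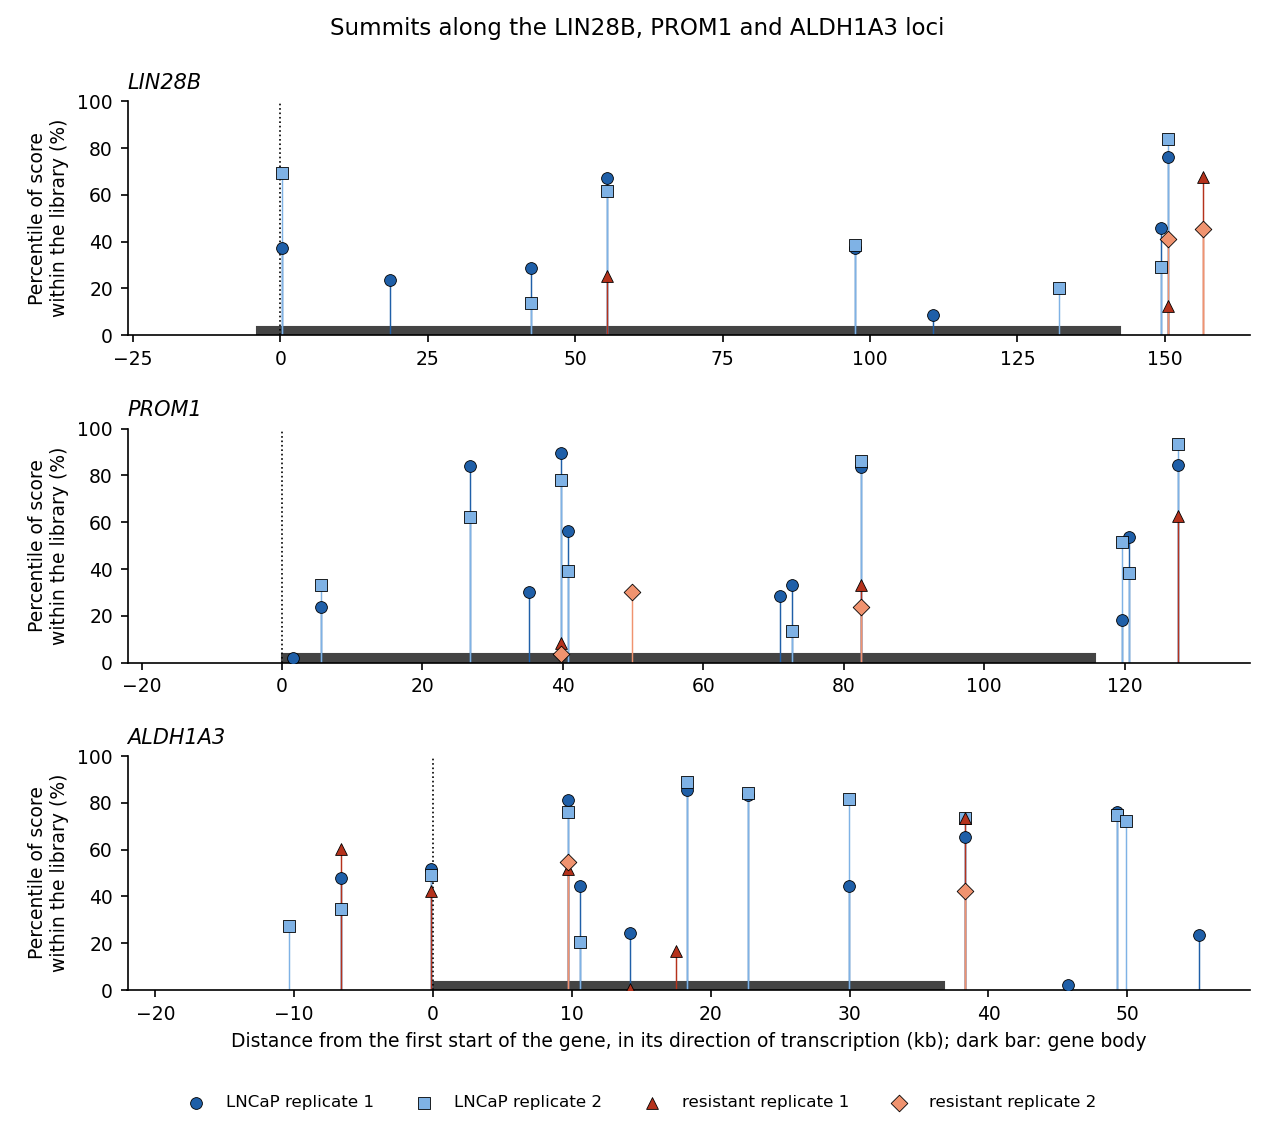
Regions along LIN28B, PROM1 and ALDH1A3, by distance from the first start of the gene in its direction of transcription (x axis, kb) and percentile within the library (y axis, percent). Each point is the strongest summit of 1 library in a region, drawn at the region's strongest summit, and the dark bar is the gene body. Most regions inside the 3 genes hold blue LNCaP points alone or above the red resistant points, and the resistant points of the PROM1 region near 40 kb are at 8.20 and 3.86.

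Over the 10 loci, LNCaP-only regions outnumbered resistant-only ones. Of 71 regions, 18 (25.4%) were shared by all 4 libraries, 22 (31.0%) were LNCaP-only and 4 (5.63%) were resistant-only, and 27 were mixed, meaning that the libraries of a group differed. Over all 150917 regions the shares were 21.1% shared, 27.5% LNCaP-only and 3.84% resistant-only, so the 10 loci were close to the rest of the genome in each class. The LNCaP-only regions were mostly at 3 genes: 15 of the 22 were at PROM1 (6), ALDH1A3 (5) and LIN28B (4), which together held 38 of the 71 regions. The 4 resistant-only regions were at SOX2, KLF4, LIN28B and ALDH1A1, all outside the body of the gene. Inside gene bodies, 13 of 31 regions were LNCaP-only and 0 were resistant-only, against 29.2% and 3.5% of all regions inside protein-coding genes. Without resistant replicate 2, the resistant-only count was 8 in place of 4.

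**Figure D4:**
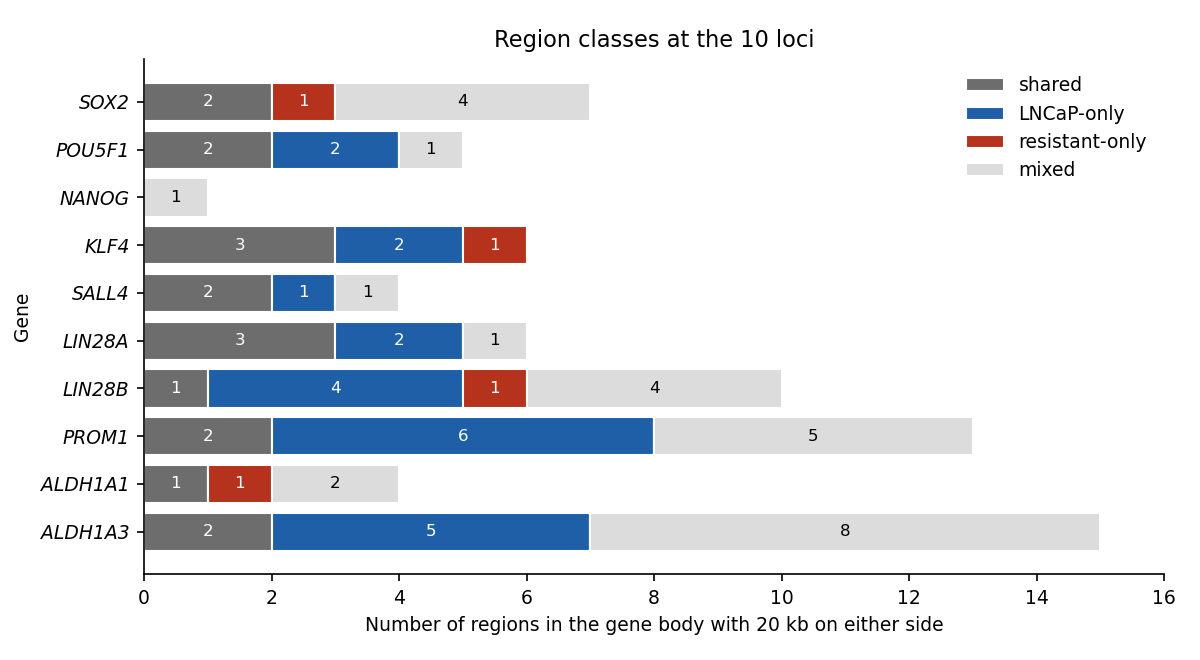
Number of regions of each class (x axis, count from 0) in the body of each gene with 20 kb on either side. Shared regions had a summit in all 4 libraries, LNCaP-only and resistant-only regions in both libraries of a group and in neither of the other, and mixed regions in another combination. The longest LNCaP-only bars are those of PROM1 (6), ALDH1A3 (5) and LIN28B (4), and SOX2 and ALDH1A1 have none.

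These counts move with the length of the lists. Of the 22 LNCaP-only regions, 6 ranked among the strongest 45618 summits of both LNCaP lists, which is the length of the shortest list. With each list limited to its 45618 strongest summits, the 10 loci held 40 regions, of which 7 were LNCaP-only and 10 resistant-only, against 17.1% and 14.9% of all regions at this setting. The LNCaP-only count was thus near the background. In that count SOX2 had 4 resistant-only regions, KLF4 had 3 and ALDH1A1 had 1, their start regions included, and none of these 3 genes had an LNCaP-only region. The limit cuts the LNCaP lists most and so lowers LNCaP percentiles most, which by itself pushes calls towards higher and regions towards resistant-only. The start calls of SOX2, KLF4 and ALDH1A1 stayed higher and SALL4 became higher. LIN28B, PROM1 and ALDH1A3 were no longer lower, PROM1 having no start summit left in any library. Thus 5 of the 7 genes that still had a start summit were higher and 0 lower, against 63.8% and 7.61% of all genes, so the higher share was near the background. LIN28A is among the 5 through the summit at the DHDDS start, at 54.0 and 46.8 in LNCaP and 90.1 and 86.3 in resistant libraries. With a score of at least 10, LIN28B and ALDH1A3 overlapped between the groups and PROM1 again had no start summit left, while SOX2, KLF4 and ALDH1A1 stayed higher.

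The shared regions were also split by their distance to a start. Within 3 kb of a start of any gene in the promoter table, 7 of 8 shared regions were higher in both resistant libraries, 0 were lower and 1 overlapped. Over all shared regions near a start, 25.7% were higher and 25.5% lower. Farther than 3 kb from a start, 0 of 10 shared regions were higher, 6 were lower and 4 overlapped, against 13.1% higher and 51.1% lower over all such regions. The 7 higher regions were those at the starts of SOX2, KLF4, ALDH1A1, DHDDS, TCF19, ATP9A and LOC105376206, so 4 of them belong to neighbours of the listed genes. The SALL4 region 2215 bp inside that gene counts as far, because SALL4 is not in the promoter table. Without regard to position, 7 of the 18 shared regions were higher and 6 lower, against 17.7% and 41.8% of all shared regions, and the median difference was -0.36 points over the 18 and -4.65 over all. Of the 51 regions far from a start, 17 were LNCaP-only, against 30.5% of all such regions, and of the 20 near a start 5 were, against 12.4%.

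**Figure D5:**
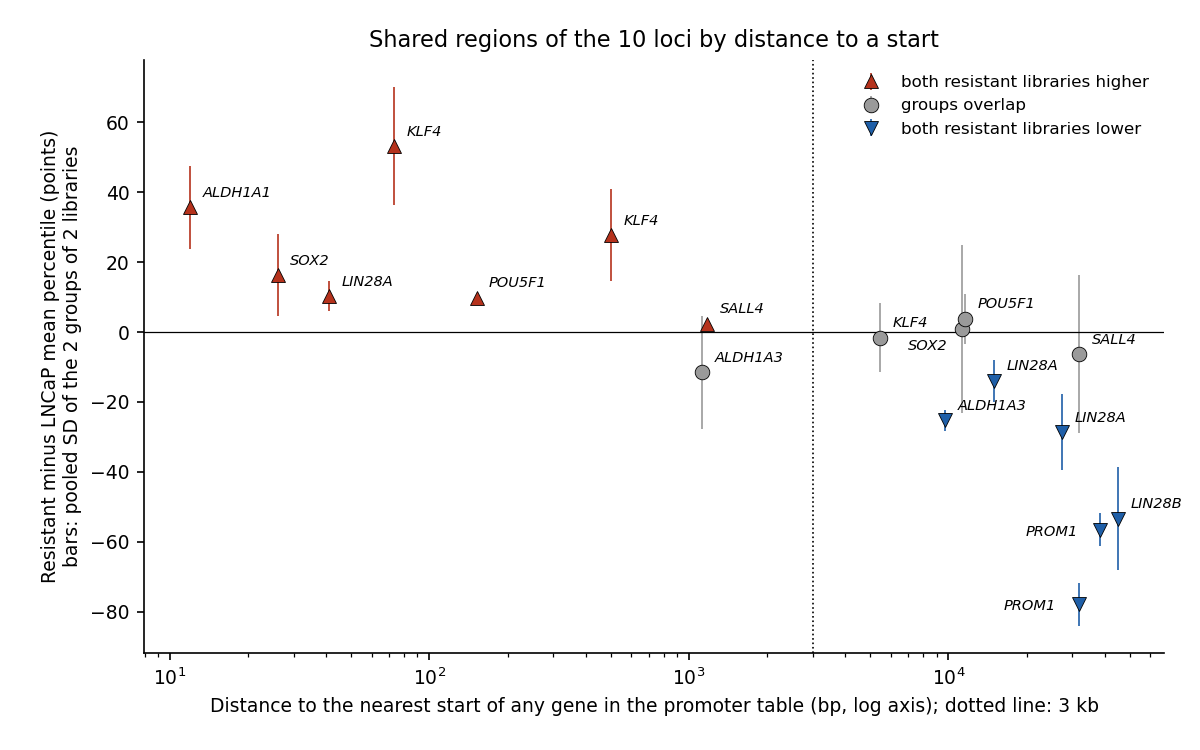
Difference in mean percentile, resistant minus LNCaP (y axis, points, bars are the pooled SD of 2 groups of 2 libraries), of the 18 shared regions against the distance to the nearest start of any gene in the promoter table (x axis, bp, log scale). Labels give the locus. The 7 regions with both resistant libraries higher lie left of the dotted line at 3 kb, and the 6 with both lower lie right of it.

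The strongest summit of a locus, wherever it lay, was higher in both resistant libraries at SOX2, KLF4, SALL4, LIN28A and ALDH1A1 and lower at NANOG, LIN28B, PROM1 and ALDH1A3, with an overlap at POU5F1. Over all genes with a summit in this range, 15.4% were higher and 42.9% lower. The strongest summit of a locus can be a different region in each library. The SALL4 values are those of the ATP9A region, and the LIN28A values are those of the DHDDS start except in LNCaP replicate 2, where the region inside LIN28A was stronger, at 84.4. At KLF4 the LNCaP values are those of the region 5446 bp after the start and the resistant values those of the region at LOC105376206. Lower calls mix regions too. At LIN28B the LNCaP values are those of the shared region past the 3′ end and the resistant values those of the resistant-only region inside POPDC1. At PROM1 the values of LNCaP replicate 2 and resistant replicate 1 are those of the flank region nearest to FGFBP2. That of resistant replicate 2 is from a region listed in no other library. The median difference was 1.33 points over the 10 genes and -2.34 over 19115 genes. In summit numbers, 6 of the 10 loci had fewer in both resistant libraries, against the 52.2% of genes given above, with a median difference of -1.75 summits against -1.5. In all, the 10 loci held 61 and 49 summits in LNCaP and 37 and 28 in resistant libraries, which is 5.20, 4.56, 5.22 and 6.14 per 10000 summits of the list.

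Related genes outside the list were read at their starts in the same way. Of 66 such genes, 52 had a start summit, and 18 were higher, 16 lower and 18 overlapping, beside the 25.3% higher and 25.7% lower of all genes. In the pluripotency network, 14 of 27 genes had no start summit in any library, DPPA2, DPPA3, DPPA4 and ZFP42 among them. Of the 13 that had one, 5 were higher and 3 lower, with a median difference of 7.22 points. Of 10 genes of the LIN28 and let-7 pathway, 7 were higher and 2 lower, with a median difference of 8.64 points. They include the let-7 targets HMGA2, at 33.6 and 1.32 in LNCaP and 69.3 and 66.3 in resistant libraries, and IGF2BP1, listed only in resistant libraries at 39.2 and 25.2. Among 16 stem and progenitor surface markers, 4 were higher and 6 lower, with a median difference of -0.76. The drug efflux pump gene ABCG2 had percentiles of 28.6 and 0 in LNCaP but of 79.5 and 74.6 in resistant libraries. THY1 had percentiles of 88.0 and 94.2 in LNCaP and was at 0 in resistant libraries, as was SOX15 of the pluripotency network, which had 64.0 and 73.7 in LNCaP. For genes not in the promoter table, HMGA2, IGF2BP1, THY1 and SOX15 among them, either end of the gene was used, so a summit can be that of the 3′ end or of a neighbour. In retinoic acid metabolism, 2 of 13 genes were higher and 5 lower, with a median difference of -5.20.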

How the data were processed

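ATAC-seq peak summits of 2 LNCaP and 2 LNCaP-resistance libraries were analysed. The authors called peaks on each library and deposited 1 summit list per library, with a −log10 p-value or q-value per summit. Which of these it is was not given in the sources used here. The submitters' processing notes name Bowtie2 2.2.5, SAMtools 1.6, MACS2 2.2.6 and the build hg38. The lists hold no read counts, so depth and the precision it gives are unknown. Peak calling depends on depth, so a shorter list can lack weak regions.

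Between 0.0972% and 0.185% of summits lay off the main chromosomes. They were left out of the regions but stayed in the lists that set the percentiles and the list lengths. A window of 250 bp was placed to each side of a summit, and windows that overlapped were merged across libraries into regions. Scores were turned into percentiles within a library. Gene positions and starts came from the RefSeq tables of GRCh38.p14. Of 20033 protein-coding genes, 15841 had a start in the promoter table. For the others, either end of the gene served as its start. The distance of a region is that of its strongest summit to the nearest start of the gene. All 10 genes were named, with the 3 genes of the related lists that changed most each way among those whose groups do not overlap, 1 of which is not reported here. The genes and lists were chosen with earlier results of these data known. Replicate numbers come with a batch label of the same number, which pairs the libraries. Deviations from the group means had a correlation of -0.0121 between same-numbered libraries over 31833 shared regions. The calls were also read within replicate numbers. The computation was tested on simulated lists. The alternatives were other window widths, flanks and score limits, equal numbers of summits, other membership rules, percentiles among shared regions, and leaving out each library. Python 3.11.15, numpy 2.4.6, pandas 2.3.3 and matplotlib 3.10.9 were used.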

Additional observations from a re-analysis of the deposited data

How the results depend on the processing

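The shares of all genes or regions are given above for the main setting, for equal numbers of summits and for regions inside genes. For the other settings no such share is given, so their counts describe the setting and cannot set the listed genes apart from other genes. With a score of at least 10, the 10 loci held 8 shared and 11 LNCaP-only regions, and 0 genes were lower at the start. With equal numbers of summits, the counts were 7 shared, 7 LNCaP-only and 10 resistant-only regions. At this setting, which lowers LNCaP percentiles most, 0 genes were lower at the start and 2 lower by the strongest summit of the locus. The ratio of summit numbers, resistant to LNCaP, reversed from 0.591 to 1.21, and ALDH1A3 changed at its start by 5.09 points instead of falling. Membership by at least 1 library gave 28 shared, 34 LNCaP-only and 9 resistant-only regions. A flank of 5 kb left 11 shared and 2 resistant-only regions. A flank of 50 kb gave 35 LNCaP-only and 8 resistant-only regions, with 2 genes higher by the strongest summit. SALL4 reversed with both flanks, to -7.59 and -2.05 points. Gene bodies alone held 6 shared, 13 LNCaP-only and 0 resistant-only regions, 1 gene higher by its strongest summit, and a ratio of 0.353. There KLF4, SALL4, LIN28A and ALDH1A1 reversed, to -37.9, -7.59, -13.9 and -28.4 points, since the regions at the KLF4, ATP9A and DHDDS starts lie outside the body and the ALDH1A1 start summit falls inside it, by position, in LNCaP replicate 2 alone. With percentiles among shared regions, 0 genes were lower at the start, which follows from the setting, because the start regions of LIN28B, PROM1 and ALDH1A3 are not shared and get no value. The cause of the other changes was not tested. Leaving out 1 library at a time gave 18 to 23 shared, 22 to 31 LNCaP-only and 5 to 8 resistant-only regions, 4 to 6 genes higher and 3 to 4 lower at the start, 5 to 6 higher and 4 to 5 lower by the locus, and a ratio of 0.509 to 0.673. The 8 resistant-only regions arose without resistant replicate 2. With the replicate number as a block, 18 regions were shared, 22 LNCaP-only and 4 resistant-only, which follows from the definition of the classes. A higher or lower call cannot be lost with the pairing, and only overlapping genes could change. At the start 4 genes were higher and 3 lower, and no other call than the number of SOX2 summits changed. With the direction of transcription of LIN28A, POU5F1 and SALL4, an alternative chosen after seeing the data, 3 starts were higher.

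Over all settings, 67 counts and ratios stayed within 1.5 times of the reported value, 23 moved further and 1 reversed. Of the values of single genes, 129 moved by less than the spread between replicates or not at all, 54 by at least as much and 7 reversed. Leaving out 1 library of 2 cannot move a value by more than this spread, so those settings could count against a value only where the shift equals it. This occurred at the starts of LIN28B and PROM1, where both resistant values are 0. Without LNCaP replicate 2 their differences were -37.3 and -24.0 points, and they are counted among the 54. The lists give neither reads nor depth, and with 2 libraries a group no difference was tested.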
